A study of Mus musculus with 16 samples.

Results

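The genes described here encode the protein subunits of the mitochondrial ribosome. They were taken as every row of the deposited table whose Ensembl identifier maps to a protein-coding mouse gene with a symbol made of Mrpl or Mrps and a number. This rule found 78 genes among 53850 identifiers, 49 with large-subunit symbols (Mrpl) and 29 with small-subunit symbols (Mrps), spread over 17 chromosomes. All 78 passed the filter for testing (4 or more libraries reaching 10). A further 5 rows with such names are annotated as pseudogenes and were left out.

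The study profiled RNA from microglia, the resident macrophages of the brain, sorted by fluorescence from the cortex of C57BL/6J mice. The mice ate chow with PLX3397 or control chow for 1 week. PLX3397 inhibits CSF1R, the receptor kinase on which microglia depend for survival, and the study asked why its effect on microglia differs between the sexes. The 16 libraries form 4 groups of 4: males on control chow, males on PLX3397, females on control chow and females on PLX3397. All groups share the strain, the tissue and the sort, and both control groups carry no inhibitor. The labels describe the mice as young and as adult. The gate of the sort and the ages are not given in the sources used here, nor whether the 4 samples of a group came from separate animals, so p-values measure the spread between these samples. The microglia sequenced after PLX3397 are those still present after treatment.

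Mitochondria keep a small genome of their own that encodes core subunits of the respiratory chain, and a ribosome dedicated to those mRNAs translates them inside the organelle. Its ribosomal RNAs are made in the mitochondrion, whereas each of its proteins is encoded in the nucleus, made in the cytosol and imported. Many of the proteins descend from bacterial ribosomal proteins, and others were added in the mitochondrial lineage. NRF1, the ETS factor GABP and YY1 are known regulators of nuclear genes for mitochondrial proteins.

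Promoter sequences are shown for 4 genes that passed a test in at least 1 comparison and whose promoter holds the NRF1 core motif. Each is the RefSeq window from 250 bases before to 50 bases after an annotated start of transcription, in build GRCm38.p6, read 5′ to 3′ on the gene's strand. Capitals mark exact matches on either strand to the cores searched. These were GCATGCGC for NRF1 (reverse complement GCGCATGC), CCGGAAG for ETS factors (CTTCCGG) and AAGATGGCG for YY1 (CGCCATCTT). The windows are chr11:58171414-58171713 on the plus strand for Mrpl22, chr11:97041332-97041631 on the plus strand for Mrpl10, chr13:14612988-14613287 on the minus strand for Mrpl32 and chr17:35916391-35916690 on the minus strand for Mrps18b.
Mrpl22: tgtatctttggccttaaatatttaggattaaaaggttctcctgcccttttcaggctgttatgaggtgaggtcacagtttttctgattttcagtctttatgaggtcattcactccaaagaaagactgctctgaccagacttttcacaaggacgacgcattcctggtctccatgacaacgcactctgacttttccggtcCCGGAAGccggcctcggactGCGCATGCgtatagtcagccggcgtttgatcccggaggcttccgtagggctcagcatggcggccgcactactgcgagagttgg
Mrpl10: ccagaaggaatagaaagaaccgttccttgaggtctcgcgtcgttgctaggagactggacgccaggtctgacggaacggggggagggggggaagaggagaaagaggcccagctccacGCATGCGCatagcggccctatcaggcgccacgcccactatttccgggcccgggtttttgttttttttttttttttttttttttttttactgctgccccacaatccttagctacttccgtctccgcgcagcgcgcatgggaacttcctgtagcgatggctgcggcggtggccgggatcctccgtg
Mrpl32: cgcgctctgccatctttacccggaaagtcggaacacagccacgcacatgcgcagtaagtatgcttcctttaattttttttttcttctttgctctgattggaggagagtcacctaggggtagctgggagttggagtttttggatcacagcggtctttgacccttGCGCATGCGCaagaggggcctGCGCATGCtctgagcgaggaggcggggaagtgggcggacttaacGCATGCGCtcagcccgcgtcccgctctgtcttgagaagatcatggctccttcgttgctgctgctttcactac
Mrps18b: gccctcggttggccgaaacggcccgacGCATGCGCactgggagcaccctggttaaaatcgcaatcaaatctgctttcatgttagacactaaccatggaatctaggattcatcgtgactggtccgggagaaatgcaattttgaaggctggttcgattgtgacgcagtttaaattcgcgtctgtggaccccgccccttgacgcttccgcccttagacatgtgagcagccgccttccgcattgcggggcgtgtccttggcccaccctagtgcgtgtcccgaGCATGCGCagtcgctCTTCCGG

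The Mrpl22 window has 1 NRF1 core beginning at base -33 from the start and 1 ETS core beginning at base -53. The Mrpl10 window has its NRF1 core at -134. The Mrpl32 window has 4 matches to the NRF1 core, at -87, -85, -66 and -22, and the matches at -87 and -85 overlap within a single palindrome. The Mrps18b window has NRF1 cores at -223 and 29 and an ETS core at 44.

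The RefSeq table held 75 windows for 69 of the 78 genes and 32851 windows in all. The NRF1 core was in 10.7% of the windows of mitochondrial ribosomal protein genes and in 2.71% of all windows. The ETS core was in 34.7% of the former and 8.86% of all, and the YY1 core in 10.7% and 1.4%. A TATA box, searched as TATAAA on both strands (TTTATA), was in 6.67% of the former and 13.6% of all. The median GC content was 58.7% against 52.7%, and the median number of CpG dinucleotides per window was 21 against 7. These shares are a description, and the part of base composition in them was not tested. At least 1 of the NRF1, ETS and YY1 cores was found in 36 of the 69 genes. Of the 7 genes that passed a test below, 6 have a window, and 4 of these 6 hold the NRF1 core, against 8 of all 69. The other 2, Mrpl49 and Mrps30, hold none of the 3 cores in this window. This contrast was not tested, and the 4 genes are among the 8. The 7 genes are pooled over 2 comparisons that share libraries, and all calls but that of Mrpl22 ended under at least 1 other scaling.

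**Figure D1:**
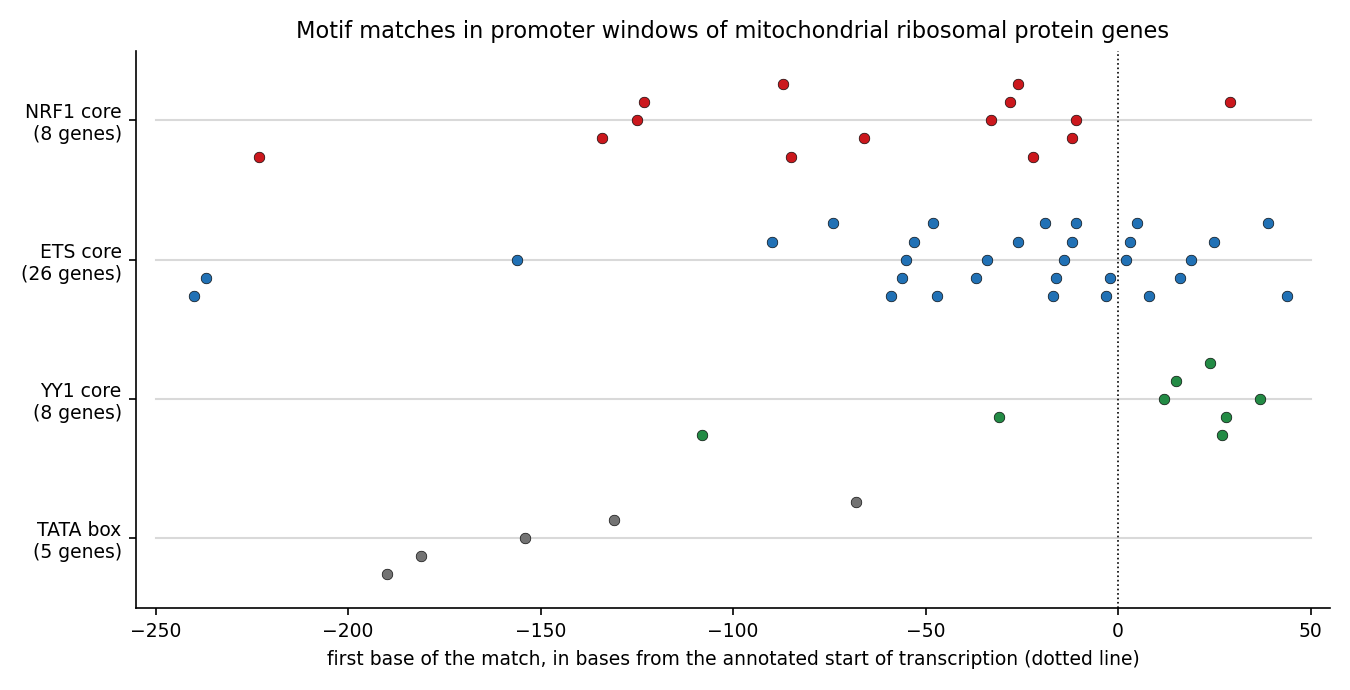
Position of exact motif matches in promoter windows of mitochondrial ribosomal protein genes. The x axis gives the first base of each match in bases from the annotated start of transcription, each point is 1 match, and points are offset vertically only to separate them. ETS matches lie mostly near the start of transcription, and matches to the TATA box lie upstream of it in 5 genes.

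Every mitochondrial ribosomal protein gene was expressed in every library, at normalised read counts (the deposited values, whose formula is not given in the sources used here) between 254.5 and 3809. Mean values over the 16 libraries ran from 422 for Mrps22, a small-subunit protein found only in mitochondria, to 3040 for Mrpl4, a protein of the tunnel through which the new chain leaves the ribosome. Per kilobase of annotated transcript, the highest mean levels were those of Mrpl52 at 3501, Mrps17 at 2991 and Mrpl33 at 2863. The lowest per kilobase were those of Mrpl47 at 148, Mrpl1 at 155 and Mrps35 at 162. The range of per-kilobase levels was 23.7-fold. Transcript lengths are medians over annotated isoforms and may differ from those expressed.

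The genes were measured with less scatter than most. Their median SD within groups was 0.226 on the log2 scale, against 0.396 over all genes tested. For a typical member the highest of the 16 values was 1.87 times the lowest (median), with a range over members of 1.29 to 2.85. The median SE of a log2 change between groups was 0.164, against 0.292 for all genes. Small changes were therefore better resolved here than elsewhere in the table.

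A pair of libraries stood apart. Male control replicate 4 had an Xist value of 516 where the other male libraries had 14.7 to 31.4. Male PLX3397 replicate 3 had an S100a8 value of 14420 where the others of its group had 2020 to 3184. Library totals ran from 32641505 to 44162201. Estimated reads were 42200000 to 78600000 in male controls, 29700000 to 39000000 in males on PLX3397, 29400000 to 38600000 in female controls and 22200000 to 72300000 in females on PLX3397. Among 8 microglial markers, all were detected in all groups. Their sum was 2144000 to 2318000 in male controls and 978300 to 1386000 in males on PLX3397, and 2035000 to 2489000 and 1567000 to 1781000 in females. The sum of 7 neutrophil markers was 262 to 3194 in male controls, 9780 to 69030 in males on PLX3397, 0.0 to 4.97 in female controls (5 of 7 at 0) and 803 to 3076 in females on PLX3397. Other marker sums also had male groups that did not overlap. Those of 5 oligodendrocyte markers were 2883 to 3504 in controls and 4018 to 4866 on PLX3397. Those of 6 border-associated macrophage markers were 1686 to 2638, then 537 to 888. Those of 4 endothelial markers were 925 to 1684, then 352 to 564, and of 4 monocyte markers 341 to 674, then 685 to 5860.0. Single markers did not all follow their sums. In each male group 2 of the 4 endothelial markers reached 10 in a library. The 2 endothelial markers tested had male log2 changes of -1.53 and 1.15. Of the 4 monocyte markers 2 had positive and 2 negative changes in males (-0.88 to 4.73). Of 4 oligodendrocyte markers tested 3 were positive and 1 negative, and all 6 border-associated macrophage markers were negative. In females the sums of border-associated macrophage markers (1383 to 3327, then 830 to 1160.0) and endothelial markers (1280.0 to 1445, then 507 to 807) did not overlap either. The part of other cell types and of depth in the results below was not tested, and in bulk samples fewer cells of a type and less RNA per cell cannot be told apart.

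In males, PLX3397 was followed by lower values of a few mitochondrial ribosomal protein genes and by mostly negative changes in the rest on the deposited scale, though not with equal library totals. By limma on log2(value + 1) with Benjamini-Hochberg adjustment over 19594 genes, 3 of the 78 genes fell, 0 rose and 75 did not pass at an adjusted p under 0.05. Under the other 3 scalings 1 rose, Mrpl28. Over all genes tested, 11.7% were called in this comparison, 4.16% higher and 7.52% lower, so the share of members called lower was below the background. The members' median log2 change was -0.13, against 0.02 for all genes, and 60 of the 78 had negative changes. In single libraries the members' median had an SD of 0.0233 in controls and 0.135 on PLX3397, or 0.137 combined (root of the summed squares). This is the spread of a difference between single libraries, which is wider than the error of a change between group means. The median change itself was not tested. Without PLX3397 replicate 2 the median was -0.07 and 48 changes were negative. Without adjustment, 10 were lower and 2 higher at p under 0.05, and over all 19594 genes 2690 were lower and 1970 higher.

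Mrpl22, which lines the peptide exit tunnel of the large subunit, had values of 953, 954, 916 and 873 in male controls (924 ± 38.3, mean ± SD, n = 4). In males on PLX3397 it had 451, 474, 685 and 592 (550 ± 109). Each treated library lay below each control library. The log2 change was -0.77 ± 0.19 (SE), a 1.7-fold fall, with adjusted p = 0.0116 by limma. The call held under all 27 alternatives, with adjusted p from 0.00745 to 0.0407. A processed pseudogene, Gm6997, is 97.1% identical to Mrpl22 over 621 bases, and it was listed at no more than 1.99 in any library.

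Mrpl4, at the wall of the same tunnel, had 3315, 2927, 3809 and 3332 in male controls (3346 ± 361). In males on PLX3397 it had 2407, 2285, 2566 and 2543 (2450.0 ± 131). The groups did not overlap, and the highest value of any library was in control replicate 3. The log2 change was -0.44 ± 0.11, a 1.36-fold fall, with adjusted p = 0.017 by limma. The Mrpl4 call ended without control replicate 3 (adjusted p = 0.0622) and without PLX3397 replicate 2 (adjusted p = 0.0524). It also ended with equal library totals (adjusted p = 0.131), with quantile normalisation (adjusted p = 0.0643) and without both libraries that stood apart (adjusted p = 0.0595). The adjusted p over all alternatives was 0.0083 to 0.131.

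Mrpl10 anchors the flexible stalk that recruits translation factors to the large subunit. It had 1565, 1922, 2025 and 1825 in male controls (1834 ± 198). In males on PLX3397 it had 898, 1271, 1428 and 1452 (1262 ± 256). All treated values were below all control values, and replicate 1 was the lowest of the treated. The log2 change was -0.56 ± 0.15, a 1.47-fold fall, with adjusted p = 0.0209 by limma. The call ended under 7 of 27 alternatives, over which adjusted p was 0.0127 to 0.122. It ended under each other scaling, with upper quartiles (adjusted p = 0.0529), equal library totals (adjusted p = 0.122) and quantile normalisation (adjusted p = 0.0529), and with the male groups fitted alone (adjusted p = 0.0722). It also ended without PLX3397 replicate 1 (adjusted p = 0.0547), control replicate 2 (adjusted p = 0.0591) or control replicate 3 (adjusted p = 0.0642). Exons of Mrpl10 overlap the antisense gene Gm11574 over 240 bases, and the library kit named in the labels does not mark strand, so reads of the 2 cannot be told apart there.

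The other stalk proteins gave no call. Mrpl12, which carries the stalk's mobile domain, had 1445 ± 177 in male controls and 1515 ± 107 in males on PLX3397 (log2 change 0.07 ± 0.16). Mrpl11, at the stalk base, had 1126 ± 94.6 and 1046 ± 132 (log2 change -0.11 ± 0.12). Differences between the changes of these 3 genes were not tested.

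Next in order of p came Mrpl3, a core protein of the large subunit, Mrps27, a small-subunit protein with RNA-binding repeats, and Mrpl28. Mrpl3 had a log2 change of -0.53 ± 0.19 (adjusted p = 0.0848 by limma) and Mrps27 one of -0.56 ± 0.20 (adjusted p = 0.0878). In both, all 4 treated values lay below all 4 control values. Mrpl28, a large-subunit protein with a bacterial counterpart, went the other way. Its values were 1079, 1140, 1369 and 1125 in male controls and 1494, 1123, 1810 and 2014 in males on PLX3397, with a log2 change of 0.42 ± 0.16 (adjusted p = 0.107 by limma). The low PLX3397 replicate 2 overlapped the controls, and without that library Mrpl28 passed (adjusted p = 0.0144). It also passed with upper-quartile scaling (adjusted p = 0.0412), equal library totals (adjusted p = 0.0157) and quantile normalisation (adjusted p = 0.0454).

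Counting every gene whose male groups did not overlap, 6 of 78 lay entirely lower after PLX3397 (Mrpl10, Mrpl22, Mrpl3, Mrpl4, Mrps10 and Mrps27) and 0 entirely higher. Among all genes tested 17.6% had groups that did not overlap, so this count too was below the background. The count of genes that fell was 2 with upper-quartile scaling and 1 with equal library totals or quantile normalisation, and 1 rose in each of these 3, Mrpl28. The count that fell was 1 without control replicate 3, 5 with array weights and 2 without both libraries that stood apart. Wherever 1 gene fell, it was Mrpl22. The 3 genes that fell were all of the large subunit and all have bacterial counterparts. The median change was -0.14 for the 49 large-subunit symbols and -0.11 for the 29 small-subunit symbols. As a rough class of genes with a bacterial counterpart, symbol numbers up to 36 for Mrpl and 21 for Mrps were taken. The median was -0.12 for these 44 genes and -0.14 for the 34 with higher numbers. The number alone set the class, so single genes may be misplaced. No difference between the subunits or these classes was tested.

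**Figure D2:**
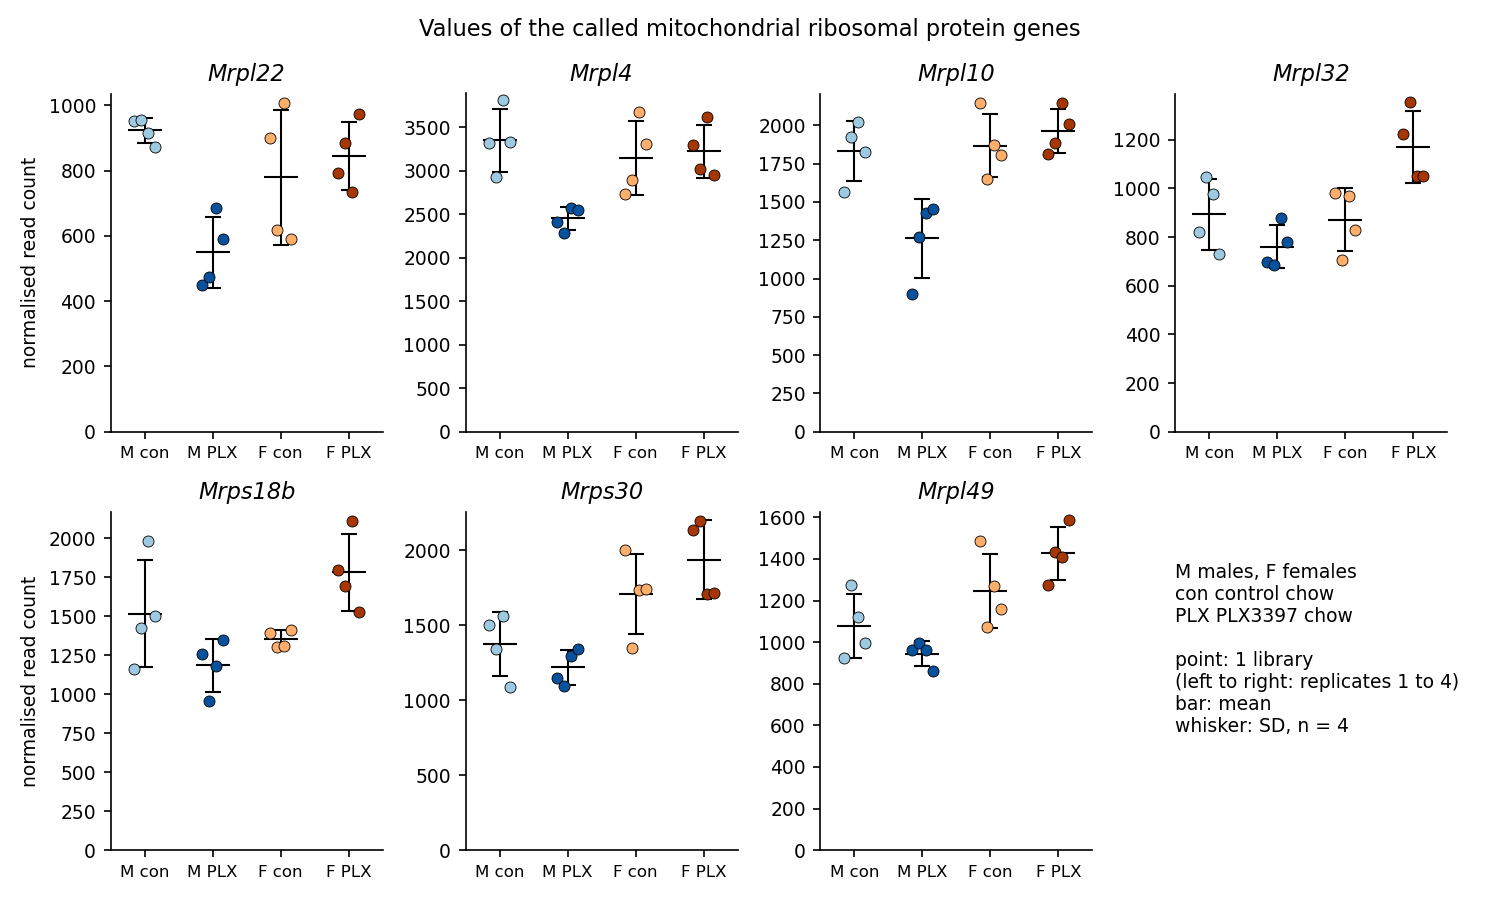
Normalised read count of the 7 mitochondrial ribosomal protein genes that passed a test in a comparison, in each of the 16 libraries. Points are libraries, bars are means and whiskers are SD (n = 4). Mrpl22, Mrpl4 and Mrpl10 in males on PLX3397 lie below both the male controls and the females on PLX3397.

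In females, no mitochondrial ribosomal protein gene passed the test after PLX3397. By limma with Benjamini-Hochberg adjustment, 0 of 78 rose and 0 fell, where 5.34% of all genes were called. Without adjustment 4 were higher and 2 lower at p under 0.05, and over all 19594 genes 1660 were higher and 1687 lower. The members' median log2 change was 0.05, against -0.00 for all genes, and 47 of the 78 changes were positive. The SD of the members' median between single libraries, combined in the same way, was 0.196. The median change ran from 0.01 without control replicate 2 to 0.12 without control replicate 3. Groups did not overlap for 4 genes, Mrpl28, Mrpl32 and Mrps18b being higher on PLX3397 and Mrpl19 lower, where 10.4% of all genes had groups that did not overlap.

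Mrps25, a small-subunit protein found only in mitochondria, had the smallest p in females. Its values were 726, 826, 1214 and 741 in controls and 1069, 1354, 1320.0 and 1107 on PLX3397. Control replicate 3 lay within the treated range. The log2 change was 0.49 ± 0.17 (adjusted p = 0.128 by limma), and without that control library the gene passed (adjusted p = 0.0216). Exons of Mrps25 overlap those of Nr2c2 over 3533 bases.

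Mrpl32, a large-subunit protein whose import is followed by cleavage by the m-AAA protease, had 982, 706, 967 and 828 in female controls (871 ± 130) and 1225, 1356, 1052 and 1051 on PLX3397 (1171 ± 148). Its log2 change was 0.43 ± 0.16 (adjusted p = 0.144 by limma). Mrpl28 had 1247, 1176, 1249 and 1494 in controls and 1712, 1925, 1754 and 1583 on PLX3397, with a log2 change of 0.44 ± 0.16 (adjusted p = 0.15). In each the groups did not overlap, and in each the change failed the correction.

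Mrps18b, 1 of several mitochondrial relatives of a single bacterial small-subunit protein, had a log2 change of 0.39 ± 0.16 in females (adjusted p = 0.204 by limma). Mrpl19, at the interface of the subunits, had 922, 978, 1253 and 887 in controls and 568, 650, 581 and 782 on PLX3397. All treated values were lower, and the log2 change was -0.64 ± 0.25 (adjusted p = 0.184). Mrps11, in the platform of the small subunit, had a log2 change of -0.50 ± 0.22 (adjusted p = 0.237). Mrpl19 shares 1962 exon bases with Gcfc2.

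The sexes used separate control groups, so their changes can be set side by side. Of the 60 genes with negative changes in males, 32 had positive changes in females and 28 negative. Of the 18 with positive changes in males, 15 were also positive in females and 3 negative. Mrpl28 had nearly the same change in both, 0.42 in males and 0.44 in females. Mrpl22 had -0.77 in males and 0.15 ± 0.19 in females, Mrpl4 -0.44 and 0.04 ± 0.11, and Mrpl10 -0.56 and 0.08 ± 0.15.

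The difference between these responses was tested itself, as females minus males. By limma 0 of 78 genes passed, and 0.0% of all genes did. Without adjustment 7 members were higher and 0 lower at p under 0.05, and over all genes 1264 were higher and 746 lower. The members' median difference was 0.16 on the log2 scale against 0.01 for all genes, and 65 of the 78 differences were positive. The SD of the members' median between single libraries, combined over all groups, was 0.239. The median difference was 0.10 without female control replicate 2 (48 positive), 0.10 without male PLX3397 replicate 2 (51 positive) and -0.01 with equal library totals (38 positive). Upper-quartile scaling gave 0.06 and quantile normalisation 0.07. The smallest p-values were those of Mrpl22 with 0.92 ± 0.26 (adjusted p = 0.249), Mrps18b with 0.73 ± 0.22 (adjusted p = 0.283) and Mrpl10 with 0.63 ± 0.21 (adjusted p = 0.308 by limma). Mrpl4 followed with 0.48 ± 0.16 and Mrpl32 with 0.66 ± 0.22 (adjusted p = 0.313 for each), then Mrps27 with 0.74 ± 0.28 (adjusted p = 0.376). The fall of Mrpl22, Mrpl4 and Mrpl10 in males is thus not shown to differ from the change in females. The median SE of such a difference was 0.232.

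On control chow no mitochondrial ribosomal protein gene was called between the sexes. By limma 0 of 78 genes passed, where 0.0663% of all genes did. Without adjustment 1 member was higher in females and 0 lower at p under 0.05. Over all 19594 genes 535 were higher and 482 lower. The median log2 difference, females minus males, was 0.04 against -0.01 for all genes. The SD of the members' median between single libraries, combined over both groups, was 0.165. The median difference was -0.01 with upper-quartile scaling, -0.00 with quantile normalisation, 0.00 without female control replicate 3 and 0.11 without female control replicate 2. Of the 78 genes only Mrps23 had groups that did not overlap, being higher in females, where 3.55% of all genes had such groups. The smallest p-values were those of Mrps5, at the entry of the mRNA channel, with 0.37 ± 0.16, Mrpl45, which tethers the ribosome to the inner membrane, with 0.44 ± 0.21, Mrps30 with 0.31 ± 0.15 and Mrps11 with 0.45 ± 0.22 (adjusted p = 0.95 for each, limma). Mrpl27 with -0.18 ± 0.12 and Mrpl49 with 0.21 ± 0.13 had adjusted p = 0.976.

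On PLX3397, females had higher values than males for 5 of the 78 genes and lower values for 0, by limma with the same adjustment. Over all genes 5.43% were called, 4.28% higher in females and 1.15% lower, so the share of members called higher was near the background. The members' median log2 difference was 0.25 against -0.02 for all genes, and 69 of the 78 differences were positive. The SD of the members' median between single libraries, combined over both groups, was 0.173. Without adjustment 21 were higher and 0 lower at p under 0.05, and over all 19594 genes 2603 were higher and 1699 lower. In 13 genes every female value was above every male value, and in 0 the reverse, where 12.1% of all genes had groups that did not overlap. This comparison shares its male PLX3397 libraries with the comparison in males, so the 2 are not independent.

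Mrpl10 had 1816, 1887, 2146 and 2010.0 in females on PLX3397 (1965 ± 145), against the 898 to 1452 of males. The log2 difference was 0.66 ± 0.15, 1.58-fold, with adjusted p = 0.0199 by limma. Mrpl49, a large-subunit protein found only in mitochondria, had 1275, 1435, 1409 and 1589 in females (1427 ± 129) and 962, 996, 960 and 859 in males (944 ± 59.3). The groups lay well apart, and the difference was 0.59 ± 0.13 (adjusted p = 0.0205).

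Mrps30 carries a small-subunit name but sits in the large subunit. It had 2132, 2191, 1704 and 1714 in females on PLX3397 (1935 ± 262) and 1145, 1094, 1295 and 1338 in males (1218 ± 117). No values overlapped, and the difference was 0.66 ± 0.15 (adjusted p = 0.021 by limma). Female controls at 1706 ± 268 were also above male controls at 1372 ± 212, by 0.31 ± 0.15. Exons of Mrps30 overlap those of B430218F22Rik over 601 bases.

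Mrpl32 had 698, 686, 878 and 778 in males on PLX3397 (760.0 ± 88.9), all below the females' 1051 to 1356. The difference was 0.62 ± 0.16 (adjusted p = 0.032 by limma). Mrps18b had 1261, 955, 1181 and 1350 in males (1187 ± 169) and 1796, 1692, 2112 and 1530 in females (1783 ± 245), a difference of 0.59 ± 0.16 (adjusted p = 0.0416). Mrpl22 with 0.63 ± 0.19 and Mrpl4 with 0.39 ± 0.11 did not pass (adjusted p = 0.057 for each). The largest difference, that of Mrps22 with 0.74, did not pass either. Exons of Mrps18b overlap the gene Gm16279 over 638 bases, and those of Mrpl49 overlap Syvn1 over 91.

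These 5 calls depended on the scaling and on single libraries. Each ended under upper-quartile scaling, equal library totals and quantile normalisation, and in a fit of these 2 groups alone, so that the count was 0 in each. Without male PLX3397 replicate 2, the library with the lowest total and the lowest sum over the members, 1 gene passed. Without female PLX3397 replicate 1, 2 or 3 the counts were 3, 3 and 2, without female control replicate 3 the count was 8, and without both libraries that stood apart it was 3.

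Gene by gene, Mrpl10 did not pass without male PLX3397 replicate 2 (adjusted p = 0.0555 by limma) or female PLX3397 replicate 3 (adjusted p = 0.0583). Mrps30 did not pass without male PLX3397 replicate 2 (adjusted p = 0.0751) or female PLX3397 replicate 2 (adjusted p = 0.0557). Mrpl49 did not pass without female PLX3397 replicate 4 (adjusted p = 0.0527). Mrpl32 lost its call under 9 of 27 alternatives and Mrps18b under 16 of 27, each with several single libraries left out, up to adjusted p = 0.121 and 0.148. The direction was the same in all of these, with females higher.

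**Figure D3:**
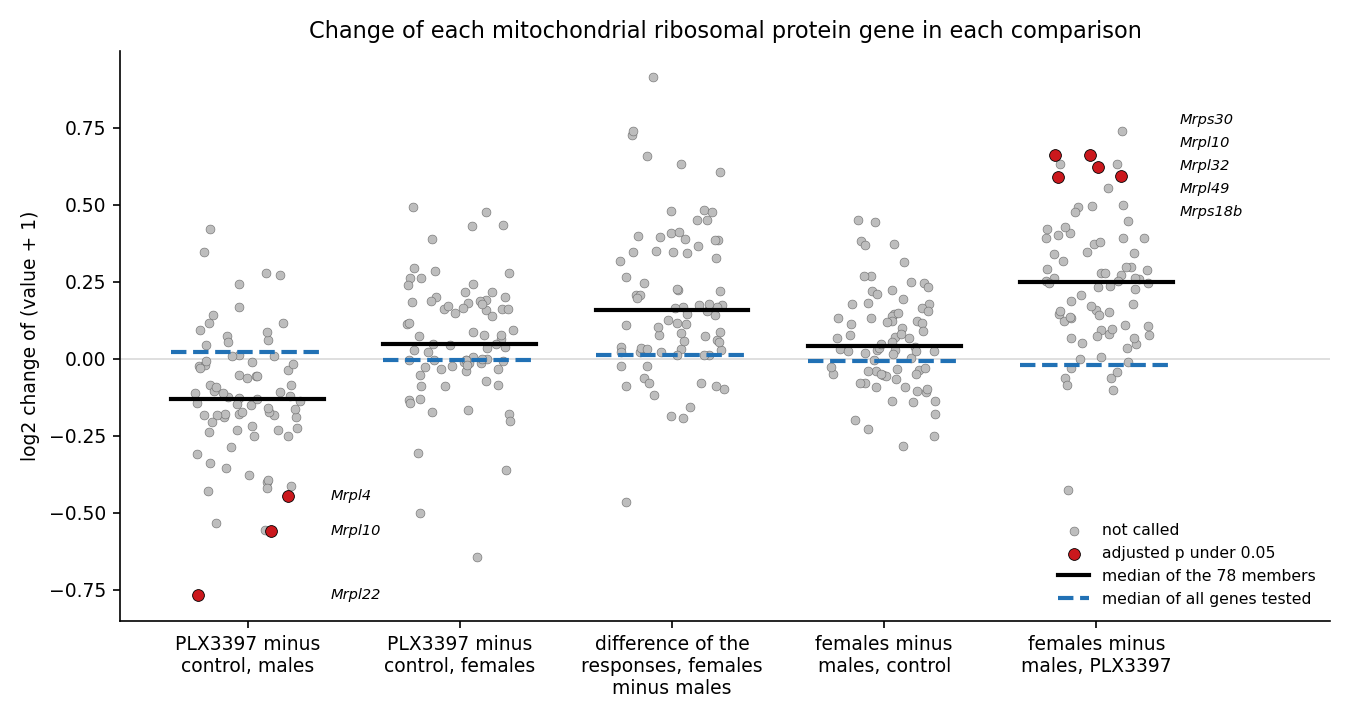
Log2 change of each of the 78 mitochondrial ribosomal protein genes in the 5 comparisons, with called genes in red and named in order of their change. Solid lines are the members' medians and dashed lines those of all genes tested. On the deposited scale the members' median is -0.13 against 0.02 in males, where it is 0.03 with equal library totals, and 0.05 against -0.00 in females.

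The direction of the shift in males depended on how libraries were put on a common scale. The members' median change in males was -0.13 as deposited, -0.06 with upper-quartile scaling, 0.03 with equal library totals and -0.08 with quantile normalisation. Equal totals also moved the median of all genes, from 0.02 to 0.18. Relative to the median of all genes, the members stood at -0.15 as deposited. Upper-quartile and equal-total scaling move all genes of a library alike, so they leave this gap nearly fixed by construction. Quantile normalisation, which can move it, brought it to -0.07, the strict filter on low values to -0.09 and leaving out male PLX3397 replicate 2 to -0.08. For females minus males on PLX3397, the members' median was 0.25, 0.10, 0.05 and 0.12 in the same order. Relative to all genes it was 0.27 as deposited, 0.12 after quantile normalisation and 0.16 with the strict filter (50 or more in 8 libraries).

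**Figure D4:**
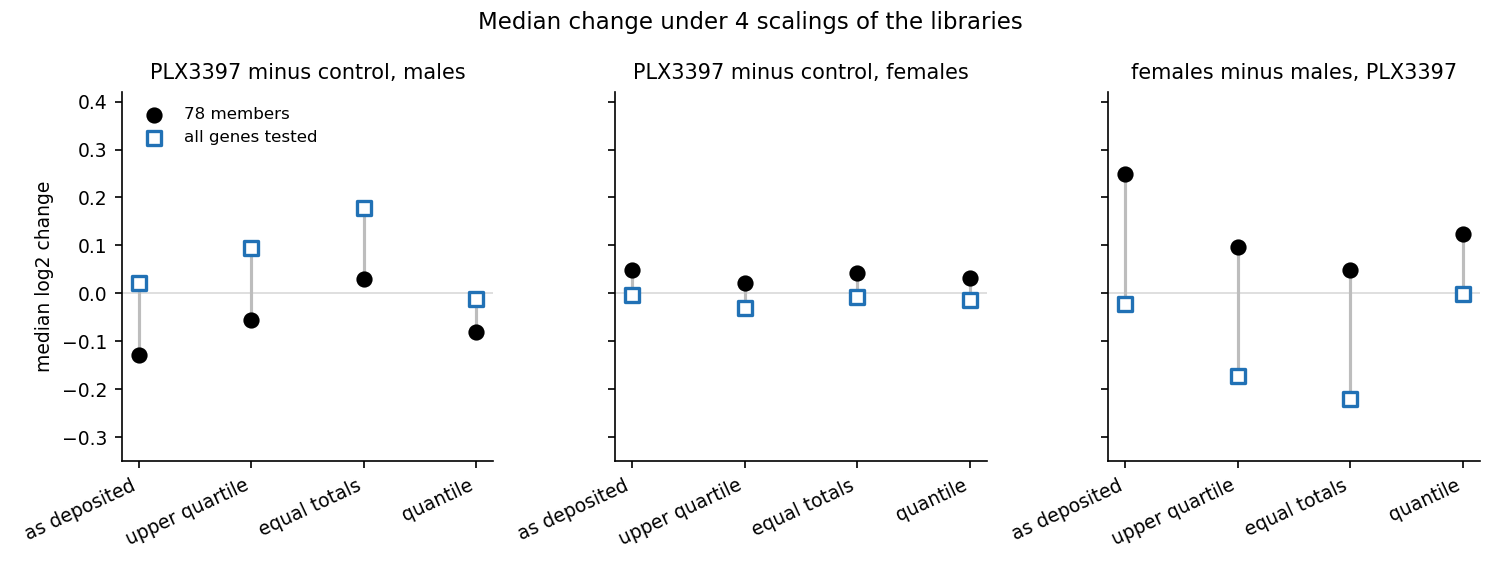
Median log2 change of the 78 mitochondrial ribosomal protein genes (filled circles) and of all genes tested (open squares) under 4 scalings of the libraries, for 3 comparisons. In males the members' own median runs from -0.13 as deposited to 0.03 with equal totals. The gap between the symbols can change only under quantile normalisation, since the other scalings move all genes of a library alike.

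As a share of each library the 78 genes together stayed within overlapping ranges. Their sum per 1000000 of the library total was 2414 to 2573 in male controls (2498 ± 67.4, n = 4) and 2372 to 2736 in males on PLX3397 (2544 ± 153). It was 2400 to 2672 in female controls (2530.0 ± 114) and 2509 to 2757 in females on PLX3397 (2613 ± 112). The 13 mRNAs encoded by the mitochondrial genome, which this ribosome translates, summed to 2692 to 2925 per 1000000 in male controls and 5228 to 6019 in males on PLX3397. In females they summed to 2480 to 3120 and 3197 to 4030. In both sexes the treated libraries were all above the controls.

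**Figure D5:**
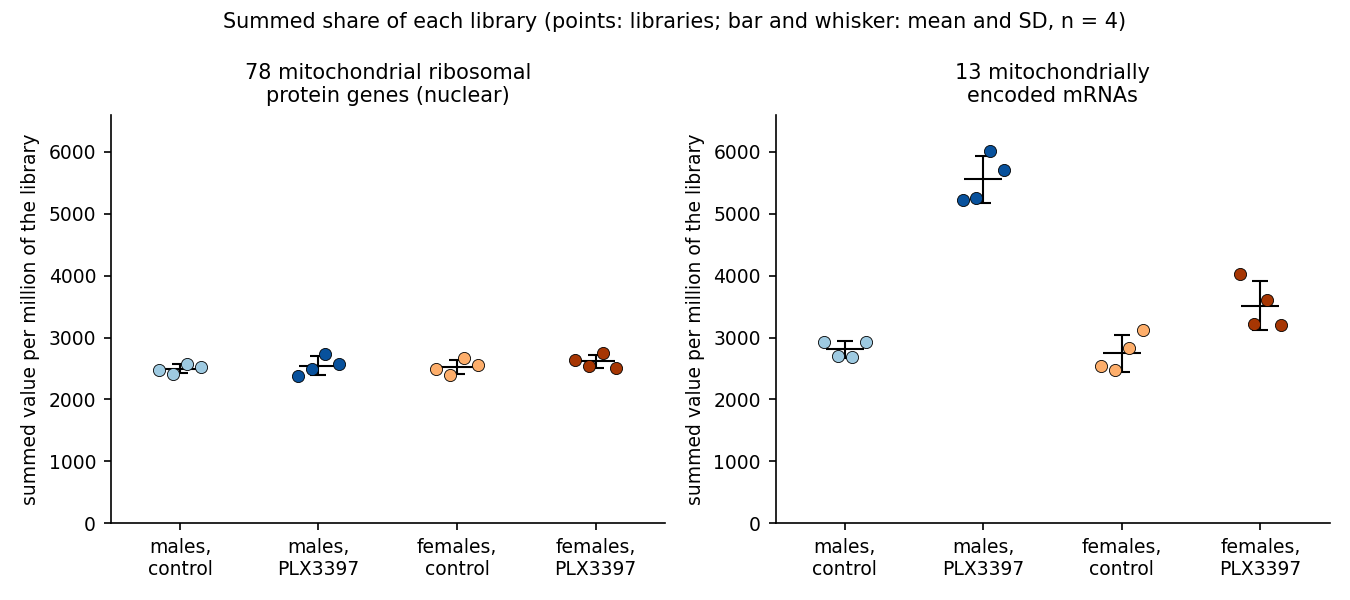
Summed normalised read counts per 1000000 of each library total for the 78 nuclear mitochondrial ribosomal protein genes (left) and for the 13 mitochondrially encoded mRNAs (right). Points are libraries, bars are means and whiskers SD (n = 4). On the left the ranges of the 4 groups overlap, and on the right males on PLX3397 stand at 5228 to 6019.

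The RNA partners of these proteins were measured in the same libraries. Of the 2 mitochondrial ribosomal RNAs, both rose in males and 1 in females. mt-Rnr1, of the small subunit, had 511 ± 128 in male controls and 1242 ± 248 on PLX3397, a log2 change of 1.29 ± 0.21 (adjusted p = 0.000495 by limma), and 0.84 ± 0.21 in females (adjusted p = 0.0231). mt-Rnr2, of the large subunit, had 10100.0 ± 1010.0 and 20520.0 ± 1070.0 in males, a change of 1.03 ± 0.15 (adjusted p = 0.00021), and 0.45 ± 0.15 in females (adjusted p = 0.0991). Both male calls held under all 27 alternatives and the female call of mt-Rnr1 under 23, ending without female PLX3397 replicate 1 or 2 or female control replicate 1 or 2. The difference between the sexes' responses did not pass for mt-Rnr1 (adjusted p = 0.628) or mt-Rnr2 (adjusted p = 0.355).

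Of the 13 mitochondrially encoded mRNAs, 12 rose in males, led by mt-Nd4, a complex I subunit (1.01 ± 0.11, adjusted p = 1.82e-05 by limma), mt-Co1 of cytochrome oxidase (0.84 ± 0.11, adjusted p = 5.62e-05) and mt-Cytb (0.88 ± 0.11, adjusted p = 7.42e-05). In females 1 rose, mt-Co2 (0.49 ± 0.12, adjusted p = 0.0217), a call that held under 22 of 27 alternatives, and 3 to 5 rose under the other 3 scalings. On PLX3397, 8 of the 13 were lower in females than in males, where 1.15% of all genes were called lower. The 5 ribosomal protein genes above were on the opposite side, at a share near the background of 4.28%. The count of 8 was 11 under each of the other 3 scalings. It was 2 without both libraries that stood apart and 0 with these 2 groups fitted alone. In the difference between the responses, 0 of the 13 passed by limma, and 10 were lower at an unadjusted p under 0.05.

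Genes that build or serve the ribosome mostly stayed uncalled, as did most genes tested, of which 11.7% were called in males and 5.34% in females. In males 7.52% of all genes tested were called lower. Of 5 mitoribosomal proteins with other symbols, 0 passed in either sex by limma, and 1 was higher in males at an unadjusted p under 0.05. Among them Dap3, a GTP-binding small-subunit protein, had a log2 change of 0.46 ± 0.16 in males (adjusted p = 0.0767 by limma) and Ptcd3 one of 0.08 ± 0.26. Of 25 assembly and rRNA-modification factors, 2 fell in males, Mterf3, needed for assembly of the large subunit (-0.48 ± 0.14, adjusted p = 0.0406), and Ngrn, needed for the large ribosomal RNA (-0.48 ± 0.15, adjusted p = 0.0425), and 0 passed in females (1 lower at an unadjusted p under 0.05). Both calls ended under each of the other 3 scalings, and they held under 13 and 11 of 27 alternatives. Of 16 translation factors, 17 aminoacyl-tRNA synthetases and 16 transcription and RNA-processing genes, 0 passed in either PLX3397 response by limma. At an unadjusted p under 0.05 in males, 2 of the translation factors were higher and 0 lower, 0 of the synthetases were called, and 2 of the transcription genes were higher and 1 lower.

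Of 9 tested regulators of mitochondrial genes, 2 fell in males and 1 rose in females. Over all genes 7.52% were called lower in males and 524 of 19594 higher in females. Gabpb1, the beta subunit of GABP, which binds the ETS core, had 1936 ± 102 in male controls and 1165 ± 69.0 on PLX3397 (-0.73 ± 0.11, adjusted p = 0.000208 by limma). In females it had 2084 ± 260.0 and 1837 ± 64.8 (-0.17 ± 0.11, adjusted p = 0.451), and the difference between the responses did not pass (adjusted p = 0.229). The male call held under all 27 alternatives. On PLX3397 Gabpb1 was also called higher in females than in males, in a comparison that shares the male PLX3397 libraries. That call held under 25 of 27 alternatives, ending with equal library totals and with these groups fitted alone. Myc fell in males (-0.98 ± 0.26, adjusted p = 0.0223, held under 21 of 27), and Ppargc1b, a coactivator, rose in females (2.16 ± 0.57, adjusted p = 0.0329, held under 19 of 27). The highest male change among the 9 was 1.65, which was not called, and 1 was higher in males at an unadjusted p under 0.05 by limma. In the difference between the responses 0 of the 9 passed, with values from -0.27 to 0.56. The changes of Myc and Ppargc1b are thus not shown to be particular to either sex. Nrf1 had changes of -0.11 ± 0.12 and -0.27 ± 0.12, and Gabpa, the DNA-binding subunit of GABP, -0.19 ± 0.21 and -0.13 ± 0.21.

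Of 83 tested cytosolic ribosomal protein genes, 19 rose in males and 7 in females by limma. Over all 19594 genes, 815 (4.16%) were called higher in males and 524 in females. The medians of the cytosolic genes were 0.32 and 0.31, beside -0.13 and 0.05 for the mitochondrial ribosomal protein genes. Under the other 3 scalings 28 to 49 rose in males and 10 to 14 in females, without both libraries that stood apart 9 and 5, and with the groups fitted alone 17 and 2. Of 80 nuclear-encoded respiratory chain subunits, 1 rose and 1 fell in males (Cox4i1 at 0.46 ± 0.12, adjusted p = 0.0189, and Ndufa9 at -0.40 ± 0.12, adjusted p = 0.0473 by limma). Under the other 3 scalings 4 to 12 rose and 0 fell. In females 3 rose (Cox4i1, Ndufb9 and Ndufb10). Their medians were 0.03 and 0.16. Of 13 mitochondrial proteases and chaperones, 0 passed in either response by limma (2 lower in males, 5 higher and 1 lower in females at an unadjusted p under 0.05), and 3 were higher in females than males on PLX3397: Hspa9, Hspd1 and Afg3l2, the last a subunit of the m-AAA protease that cleaves the Mrpl32 precursor (0.41 ± 0.12, adjusted p = 0.0479). These 3 calls ended under each of the other 3 scalings.

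Across the 16 libraries the genes varied partly together. The Pearson correlation of each gene's log2 values with the mean of the others had a median of 0.564, from 0.01 for Mrpl19 to 0.79 for Mrps14, and it was above 0 for all 78. Over all other genes the median correlation with the members' mean was -0.05. After group means were removed the members' median was 0.472. Outside the set, the genes most like the members' mean were Eif5a (r = 0.935), Psma2 (r = 0.925), Cox5a (r = 0.923), Myl12b (r = 0.921) and Mcfd2 (r = 0.921). These values describe 16 libraries that share depth, scaling and group structure.

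Some members with a special place were named whatever their change. Mrpl58, a peptidyl-tRNA hydrolase that rescues stalled ribosomes, had log2 changes of -0.36 ± 0.18 in males and -0.01 ± 0.18 in females. Mrps12, of the decoding centre, had 0.09 ± 0.17 and 0.20 ± 0.17. Mrps18a, a relative of Mrps18b placed in the large subunit, had -0.06 ± 0.14 and 0.14 ± 0.14. Mrps36, since assigned to the alpha-ketoglutarate dehydrogenase complex rather than the ribosome, had -0.11 ± 0.21 and 0.28 ± 0.21. None of these 8 changes passed the test.

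Near-identical copies and overlapping annotations limit a few of the 78 values. Mrpl23 is 100% identical over 540 bases to the pseudogene Mrpl23-ps1, whose mean value was 210% of that of Mrpl23, so reads of the pair may be split between them. Mrpl53 shares 695 exon bases with Gm42688, a gene annotated on the same strand over the same sequence, whose mean value was 213% of that of Mrpl53. For Mrps18b the copy Gm13552, 99.8% identical over 417 bases, was listed at 0 in every library, and the Mrpl32 copy Gm6578 at no more than 19.7. Exons of 26 of the 78 genes overlap another annotated gene.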

How the data were processed

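Cortical microglia were sorted and sequenced in 16 libraries (4 groups of 4). The authors' deposited table holds a signal per gene, which per its name and values is a normalised read count. Its formula is not given in the sources used here. Tools listed in the submitters' processing notes, without role or order, are STAR 2.7.9a, Salmon 1.5.2, featureCounts 2.0.1 and Subread, with bcl2fastq 2.19.1, and the build is GRCm39. Per the labels' protocols, cDNA came from a SMARTer low-input kit and libraries from Nextera XT.

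Symbols, biotypes, exon overlaps and lengths came from GENCODE and Ensembl tables of build GRCm38, which matched 51029 of 53850 identifiers. Genes reaching 10 in 4 or more libraries (19594) were fitted with R 4.3.3 and limma 3.58.1 after a log2(value + 1) transform (trend, 1 mean per group over 16 libraries, two-sided, Benjamini-Hochberg over all genes). The pseudocount understates changes of low genes. Low values cluster at multiples of a unit that differs by library (0.516 to 1.88), giving estimates of about 22200000 to 78600000 reads, but whole reads were not recovered, so no count model or counting interval was used. Copies were sought with blastn 2.17.0 (at least 95% identity over 200 bases).

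On simulated data of 19594 genes for the comparison in males, the test called 10 of 50 genes raised 1.5-fold and 33 of 50 raised 2-fold. It called 47 of 50 raised 4-fold, 34 of 50 lowered 2-fold and 14 of 19394 left alone. The share of genes changed was far below the 11.7% called in males, and they were not chosen among the members. These rates therefore do not carry over to the members. Genes were named by rule: 7 members of special placement, the called members or the 6 with the smallest p per comparison, up to 3 called genes per partner list, and the 5 genes most like the members' mean. Genes named only because their groups did not overlap, the members at the ends of the level range, and those called between the sexes on PLX3397 in partner lists were added after their values were seen. The members, lists and rule were chosen with earlier results of these data known.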

Additional observations from a re-analysis of the deposited data

Results flagged for a closer look

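Within each group of 4 libraries, the named members were searched for a single value far from the other 3, by the gap to the nearest value over the whole range (Dixon's 95% critical value). Among 22 members and 88 groups, 5 values stood out, where chance flags about 1 in 20 groups. In males on PLX3397, Mrpl12 was 1357 in replicate 2 where the others had 1553 to 1590, Mrpl58 was 1054 in replicate 4 where the others had 654 to 707, and Mrps5 was 682 in replicate 1 where the others had 836 to 859. In females on PLX3397, Mrps18a was 1656 in replicate 2 where the others had 2016 to 2076. In female controls, Mrps36 was 717 in replicate 3 where the others had 477 to 500.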

How the results depend on the processing

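Each result was recomputed under 10 settings and with each library left out, and without both libraries that stood apart, a choice made after seeing the data. No called gene changed sign. The count of 3 genes called in males, all lower, was 5 with array weights and 1 to 4 with a library left out. With upper-quartile scaling 2 fell and 1 rose, and with equal library totals or quantile normalisation 1 fell and 1 rose. The median change of -0.13 became 0.0299 with equal library totals. In females 0 genes were called in each setting and 0 to 1 with a library left out. Between the sexes on PLX3397, the count of 5 became 0 with upper-quartile scaling, 0 with equal library totals, 0 with quantile normalisation, 0 with these groups compared alone, 3 without both libraries that stood apart, and 1 to 8 with a library left out. The median of 0.25 became 0.04798 with equal library totals. Counts in the difference between responses and on control chow were 0 throughout, and the former has no version with groups compared alone. The cause of these changes was not tested. Same-numbered samples of different groups showed little shared deviation (r = -0.04 to 0.12 over 24 pairs, 1 over 0.1). The main fit paired no samples, and these values cannot show whether same-numbered samples were handled together. With the replicate block 3 genes were called in males and 5 between the sexes on PLX3397, where Mrps18b had adjusted p = 0.0502 and Mrpl4 adjusted p = 0.0387 (limma). Depth in reads is known only as an estimate, so precision is given as SE.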
